A study of Cricetiscus sungorus with 216 samples.

Results

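The mediobasal hypothalamus (MBH) of Djungarian hamsters held 40 transcripts, each taken as a gene symbol, with higher medians at 4 to 12 weeks of short photoperiod (SP). They were higher than both in long photoperiod and at 28 and 32 weeks of SP, each group being of separate hamsters. The transcripts were chosen by their levels. For each of the 20155 gene symbols of the MBH table other than Gm32262, counts were summed over isoforms and scaled to a common library total without Gm32262, which gives the unit CPM. A gene was a member if it was read in at least 27 of 54 libraries and if its median over the 18 libraries of 4, 8 and 12 weeks SP (early SP) was at least 5 CPM and at least 2 times both the median of the 6 long photoperiod (LP) libraries and the median of the 12 libraries of 28 and 32 weeks SP (late SP). In all, 43 genes met this rule, and Chrna3, Sugct and Dhrs7c were set aside together with Prr32, which had an early median of 3.27 CPM and did not meet it. The LP, early and late values below are therefore a description and were not tested.

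The hamsters were adult males from a colony of 3 to 8 months of age, kept either in LP with 16 h of light a day or in SP with 8 h of light for 4, 8, 12, 16, 20, 24, 28 or 32 weeks, with 6 hamsters in each of 9 groups. They carried no transgene, and SP was the treatment that set the groups apart. The MBH, the dorsomedial hypothalamus (DMH) and the paraventricular nucleus (PVN) were taken as bilateral punches of 1 mm and the pituitary gland was dissected, each library holding the RNA of 1 hamster, and the same 54 hamsters gave all tissues. A punch holds neurons, tanycytes, other glia and, at its base, pars tuberalis, so that a lower level can mean fewer cells of a type or less RNA per cell, which cannot be told apart in these libraries.

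In seasonal mammals, melatonin secreted through the long nights of winter acts on the pars tuberalis, whose thyrotropin controls the deiodinases of the tanycytes in the MBH and, through them, the local supply of triiodothyronine. Hamsters moved to SP lose body mass, regress their gonads and grow a white coat, and they later return to the summer state although the nights stay long. The weeks of induction and maintenance thus lie between the LP state and the return to it. Transcripts that are high in that window and low on either side are of interest as possible parts of the timer.

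The level at which the members were read comes first, because it bears on every value. The members listed between 3 and 46 isoforms each (median 9, against 4 in the 7931 genes that passed the limits on libraries and CPM), and in a library the isoforms of a member mostly carried the same whole number. The median share of read isoforms that held the commonest value was 100% over the members, 60.0% in the member with the lowest share, and 66.7% over the 7931 genes. Cacna1g, a T-type calcium channel with 46 isoforms, shows what this does to a level. Its highest value, 304 CPM at 16 weeks SP, was a sum of 90 counts in which all 46 isoforms were read and no isoform held more than 2 counts. The most abundant isoform of a member had a median of 1.40 counts in early SP, against 7 in the 7931 genes, and was under 5 counts in 38 of the 40 members. Cd44, with a median of 22 counts, was the only member at 10 or more. The sum over isoforms exceeded the most abundant isoform 2.88 to 31.6 times (median 6.93).

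The number of members can be read against the same libraries with their labels mixed. The 43 genes that met the rule were 0.542% of the 7931. With the 9 group labels shuffled over the 54 libraries 100 times, between 5 and 533 genes met the rule (median 69), and 71 of the 100 shuffles gave at least as many as the real labels. The thresholds cut through a continuum. Brd3os (2.04), Slc25a27 (2.05) and Slc45a4 (2.08) had the smallest ratios inside it, and Cryab (1.98), Cpne7 (1.98) and Slc43a2 (1.97) lay just outside. With the most abundant isoform in place of the sum, 3 members met the rule, namely Mipep, Adck1 and Brd3os, of which Adck1 is named here after its values were seen. With means in place of medians 6 did, and 7 met it whichever replicate number was left out.

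**Figure D1:**
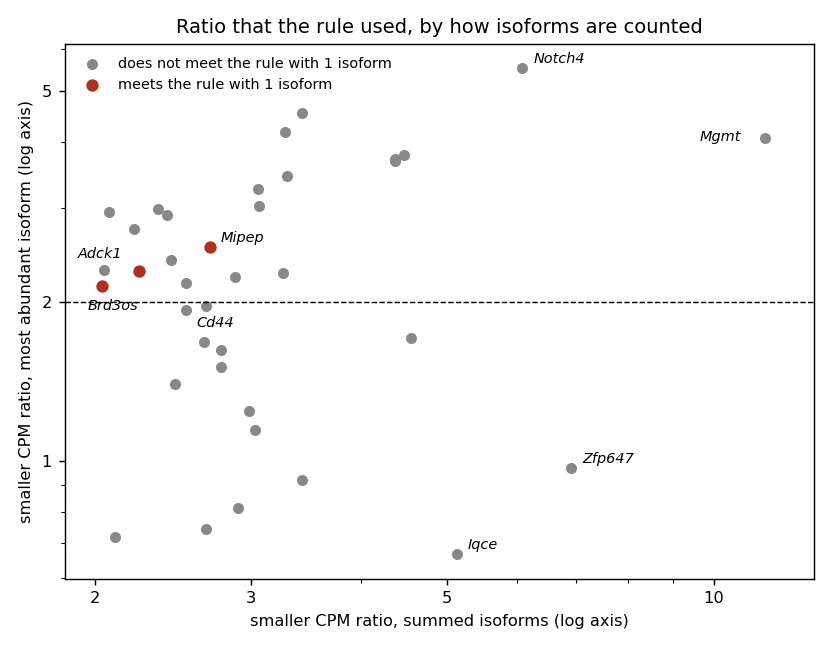
Smaller of the ratios early SP over LP and early SP over late SP, for isoforms summed per gene (x axis) and for the most abundant isoform (y axis), on log axes, with 1 point per member. The dashed line marks a ratio of 2. Of the 37 members shown, 22 lie at or above the line and 15 below it, and 3 members whose most abundant isoform had a median of 0 in both LP and late SP are not drawn. The 3 points in red also had an early median of at least 5 CPM.

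Members were read together in some libraries and not in others. In LP, 7 to 33 members were at 5 CPM or more in a library (median 11.5), in early SP 7 to 37 (median 26), at 16 to 24 weeks 0 to 33 (median 21) and in late SP 5 to 28 (median 17), so that all groups overlapped. The LP library with 33 members was also the one with the most gene symbols read in LP, 14269. The lowest early libraries were replicate 1 of 4 weeks, with 7 members, and replicate 2 of 8 weeks, with 9 members, and in these 42.9% and 60.9% of the 7931 genes were at 5 CPM or more, against 76.6% or more in every other early library. Over all 54 libraries the number of members read rose with the number of gene symbols read (a Spearman correlation of 0.89, given as a description, since both counts come from the same library and its depth). Median numbers of gene symbols read were close between the groups, with 11845 in LP, 11984 in early SP and 11802 in late SP. The part of depth in the members' levels was not tested. The 2 MBH libraries under 100000 counts were in the groups of 20 and 24 weeks, which the rule did not compare.

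**Figure D2:**
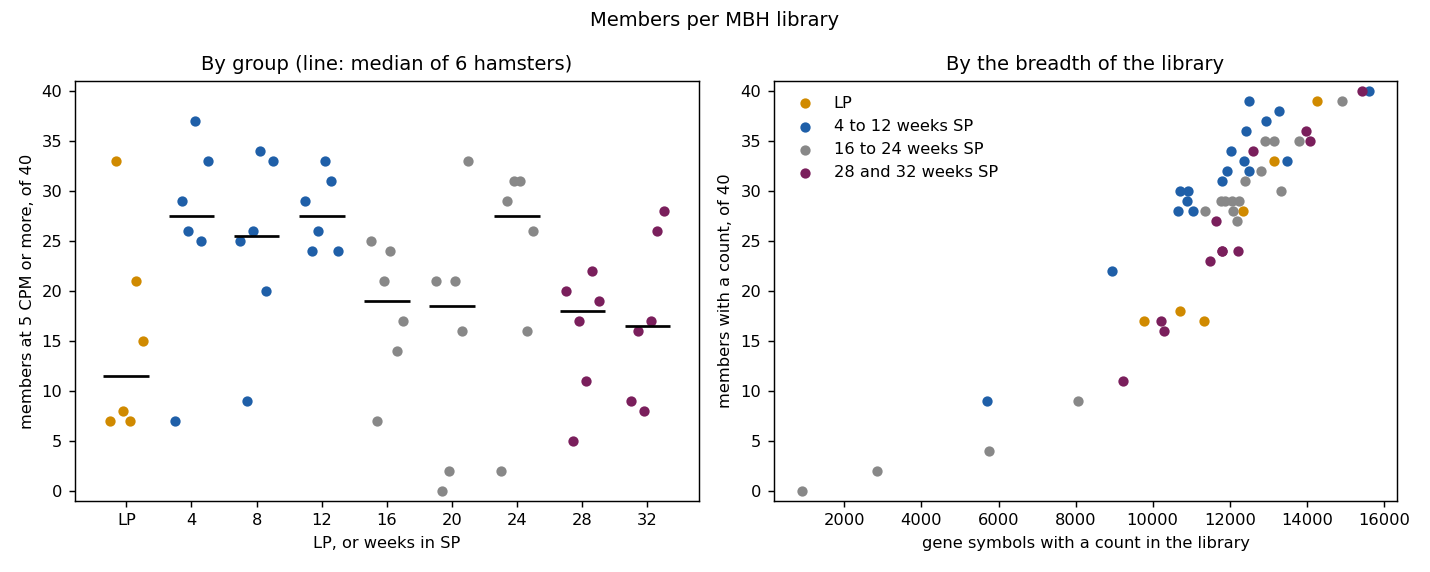
Left, members at 5 CPM or more in each MBH library by group, with a line at the median of 6 hamsters. Right, members with any count against the gene symbols with any count, with 1 point per library coloured by phase. Early SP libraries had a median of 26 members at 5 CPM or more against 11.5 in LP, with overlap, and the number of members read followed the number of gene symbols read.

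The members are described below in the order of their known roles, in a grouping made after the members were known and not tested. Cd44, the receptor for hyaluronan in the extracellular matrix, was the most abundant member. It had 8.34 to 79.7 CPM in LP (median 40.02), 7.97 to 230.96 CPM in early SP (median 117) and 22.4 to 145 CPM in late SP (median 46.1). Its medians were 98.7, 121 and 121 CPM at 4, 8 and 12 weeks. Of the 18 early libraries 13 lay above the highest LP library and 2 above the highest late SP library. By the most abundant isoform Cd44 had 49.8 CPM in early SP, 25.9 in LP and 24.6 in late SP, which is 1.92 times and just under the threshold. Cd44 was the member whose early rise rested on the most reads.

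Nrg3, a neuregulin that acts on ErbB receptors, had a median of 13.2 CPM in early SP, 2.95 in LP and 2.94 in late SP. Cntn6, a contactin that serves in neuronal adhesion, had 19.2, 4.41 and 0.756 CPM, with a range of 0 to 119 CPM within early SP. Notch4, a Notch receptor, had reads in 13 of the 18 early libraries and in 2 of the 6 from LP, with an early median of 5.93 CPM. Disp1, which releases Hedgehog ligands, and Il1r1, the receptor for interleukin 1, reached early medians of 8.52 and 14.1 CPM. For neither did the groups stand apart. An LP library held 77.9 CPM of Disp1, where the highest early library had 34.05 CPM, and for Il1r1 these were 136 and 52.97 CPM. Lypd6b, Lmbr1, Csmd1, Nphs1 and Elapor2, further membrane proteins, had early medians between 5.07 and 13.03 CPM.

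Vip, a neuropeptide of the suprachiasmatic nucleus, was the 1 member found in a list of cell type markers. It had 0 to 22.7 CPM in LP (median 2.66), 0 to 90.3 CPM in early SP (median 6.76) and 0 to 88.1 CPM in late SP (median 0.355). Most of its level lay in a few libraries. At 8 weeks 1 library held 90.3 CPM, made of 56 counts of which no isoform had more than 8, while 2 held none. At 12 weeks 84.9 and 57.3 CPM stood beside libraries at 0. The 8 markers of the suprachiasmatic nucleus and its neighbours in the table, of which Vip is one, summed to 27.3 to 348 CPM in LP, 0 to 286 CPM in early SP and 6.54 to 318 CPM in late SP, and their part in the Vip values was not tested.

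Among channels, carriers and lipid proteins, Cacna1g had 0 to 86.5 CPM in LP (median 1.66), 0 to 155 CPM in early SP (median 34.3) and 0 to 124 CPM in late SP (median 12.8). Its highest median of all groups was at 16 weeks, 117 CPM, outside the window by which it was chosen. Osbpl6, an oxysterol-binding protein that moves lipids between membranes, had 3.25 to 119 CPM in LP (median 16.5), 0 to 118 CPM in early SP (median 40.6) and 0 to 48.4 CPM in late SP (median 15.6). The highest LP library was thus as high as the highest early one. Pla2g6, a phospholipase A2, had an early median of 14.3 CPM. Slc25a27, a mitochondrial carrier of the uncoupling protein family, and Slc45a4, a solute carrier, were near the threshold, with early medians of 7.93 and 6.63 CPM.

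Mipep, the mitochondrial intermediate peptidase, cuts presequences from proteins after import. It had 3.25 to 11.2 CPM in LP (median 6.38), 0 to 33.9 CPM in early SP (median 17.2) and 0 to 22.7 CPM in late SP (median 4.83). Of the 18 early libraries 13 lay above the highest LP library and 5 above the highest late SP library. By the most abundant of its 3 isoforms the medians were 13.03 CPM in early SP, 5.14 in LP and 3.68 in late SP. Mipep met the rule in all 16 alternatives that did not raise a threshold, which no other member did, on a median of 6 counts of its most abundant isoform in early SP. These alternatives score the same LP, early and late values by which it was chosen. Those with looser limits kept all 40 members and could not exclude one, so that this is a description. Adck1, a putative mitochondrial kinase, had 16.5 CPM in early SP, 5.18 in LP and 7.33 in late SP.

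**Figure D3:**
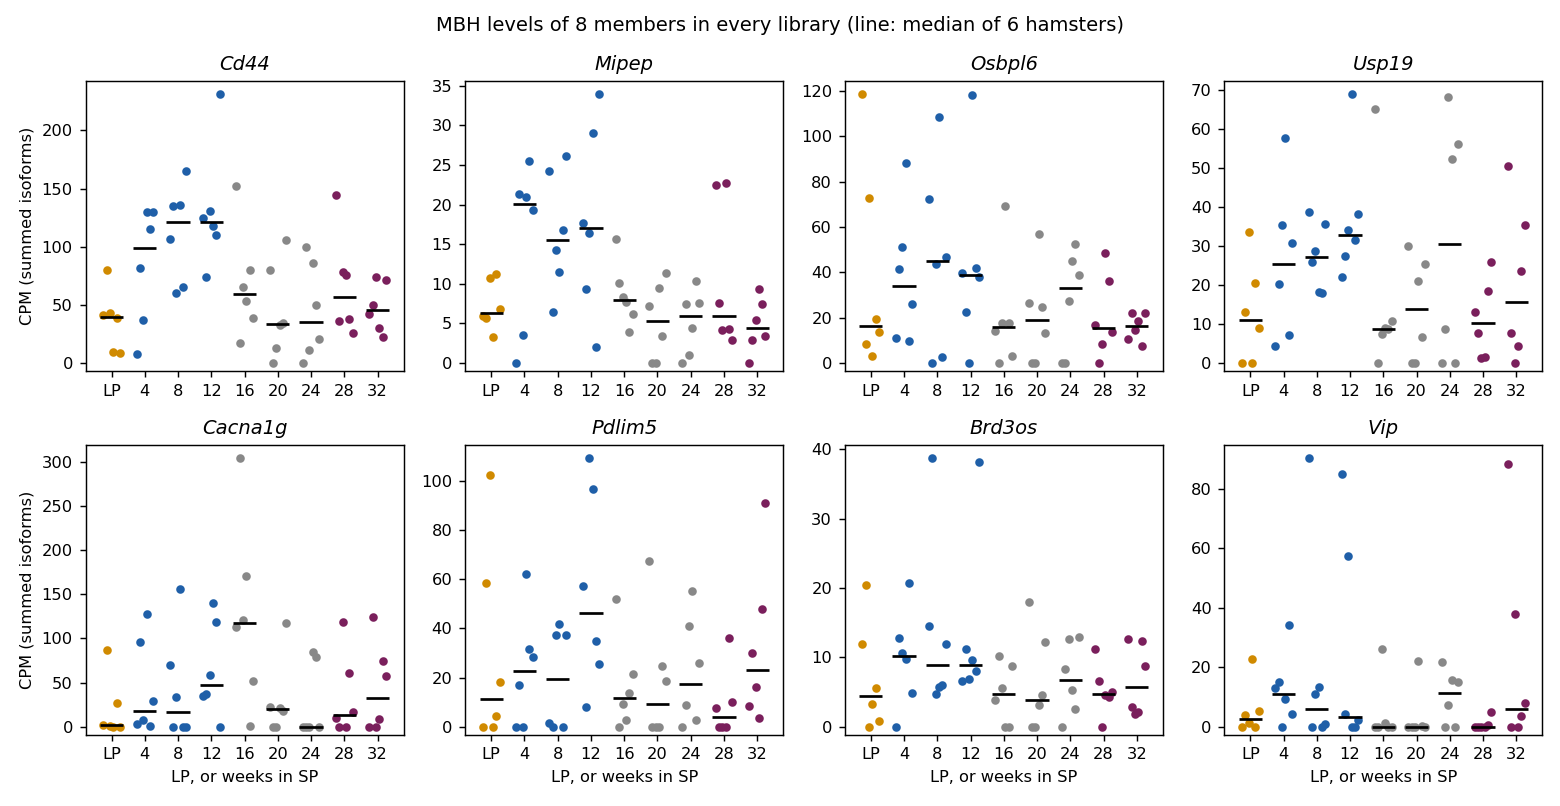
CPM of 8 members in each of the 54 MBH libraries, by group. Each point is 1 hamster and the line is the median of 6. Orange marks LP, blue 4 to 12 weeks SP, grey 16 to 24 weeks and purple 28 and 32 weeks. Early medians of Cd44 (117 CPM) and Mipep (17.2 CPM) stand above LP (40.02 and 6.38 CPM), while Cacna1g, Pdlim5 and Vip spread from 0 to their highest values within most groups.

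Some members are known from DNA and chromosome maintenance. Wrn, a RecQ helicase, had medians of 0.379 CPM in LP, 11.5 in early SP and 3.98 in late SP. Mgmt, which repairs alkylated guanine, had 0.673, 7.69 and 0.418 CPM, although the highest LP library held 38.7 CPM and the highest early library 25.5 CPM. Rec114, a meiotic protein of double strand break formation, had medians of 0, 5.58 and 0.488 CPM, and again an LP library, at 41.5 CPM, was above all early ones. These 2 had the largest ratios of all members, 11.4 each, and a median of 1 or fewer counts of their most abundant isoform in early SP. Hus1, a clamp subunit of the DNA damage checkpoint, Abraxas1, a partner of BRCA1 complexes, and Ncapd3, a condensin II subunit, had early medians of 6.73, 9.12 and 5.83 CPM. Abraxas1 was at a median of 0.683 CPM at 12 weeks, so that its early value came from 4 and 8 weeks.

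Usp19 and Stambpl1, both deubiquitinases, followed together with Rhobtb3. Usp19 had 0 to 33.6 CPM in LP (median 11.1), 4.29 to 68.7 CPM in early SP (median 29.6) and 0 to 50.4 CPM in late SP (median 10.4). It was read in all 18 early libraries and in 4 of 6 in LP. Rhobtb3 had 0 to 3.73 CPM in LP and 0 to 40.04 CPM in early SP. For it 10 of 18 early libraries were above every LP library and 6 above every late SP library. Stambpl1 had an early median of 6.05 CPM.

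Cytoskeletal and junction proteins were Pdlim5, a scaffold of the actin cytoskeleton, Plekha7, a component of adherens junctions, Ankrd24 and Lrch1. Pdlim5 had 0 to 102 CPM in LP (median 11.3), 0 to 109 CPM in early SP (median 29.99) and 0 to 91.0 CPM in late SP (median 9.15). The groups spanned the same range. Plekha7 and Ankrd24 had early medians of 22.1 and 19.8 CPM over 32 and 26 isoforms. Genes of cilia and sperm tails, Iqce, Fsip1 and Stpg1, had early medians of 6.66, 8.51 and 16.8 CPM. Zfp647 and Zfp433, zinc finger genes, Mamld1, a mastermind-like coactivator, Gm32687, a predicted gene, and Brd3os, transcribed opposite Brd3, completed the list, at 5.19 to 9.74 CPM. Gm32687 and Zfp433 held identical values in 67.6% of libraries and rose and fell together (a Spearman correlation of 1.00 over 54 libraries after the group medians were subtracted), so that they may hold the same reads and count as 1 observation.

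Within the early weeks the members did not peak together. The highest median fell at 4 weeks in 13 members, at 8 weeks in 7 and at 12 weeks in 20. In 16 members each of the 3 weeks was at least 2 times LP and late SP, in 19 members 2 weeks were, and in 5 members 1 week was. Cntn6 had medians of 47.1, 8.35 and 15.2 CPM at 4, 8 and 12 weeks, and Ncapd3 had 2.64, 1.80 and 10.9 CPM. Across hamsters of the same group the median Spearman correlation of the 780 pairs, after group medians were subtracted, was 0.20. Cd44 was most like Wrn (0.47), Mipep (0.44) and Lmbr1 (0.44), Osbpl6 was most like Nphs1 (0.43), Cacna1g (0.39) and Adck1 (0.38), and Cacna1g was most like Stpg1 (0.48), Lmbr1 (0.45) and Osbpl6 (0.39), all over 54 libraries.

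The 16, 20 and 24 weeks of SP had no part in the rule and show how the members went on after 12 weeks. Their medians were at least 0.5 times the early median in 15 members at 16 weeks, in 11 at 20 weeks and in 27 at 24 weeks, against 95.2%, 83.7% and 97.5% of the 7931 genes. At 24 weeks 17 members were at or above their early median. The members' median log2 difference from early SP (of median CPM + 1) was -1.30 at 16 weeks, -1.53 at 20 weeks and -0.36 at 24 weeks, and over the 7931 genes it was -0.10, -0.42 and 0.10. These differences are from values that were selected for being high. Some libraries of these weeks held few reads. At 20 weeks replicates 2 and 3 had 903 and 5765 gene symbols read, with 0 and 4 members. At 24 weeks replicate 1 had 2846 gene symbols read, with 2 members. These libraries are part of the medians given here and of the tests between these weeks below. Cd44 had medians of 59.8, 33.7 and 35.1 CPM (40.02 in LP) and Mipep of 8.02, 5.34 and 5.96 CPM (6.38 in LP). Stambpl1, Slc45a4, Mamld1 and Lypd6b were above their early median at 24 weeks and are named here after their values were seen.

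**Figure D4:**
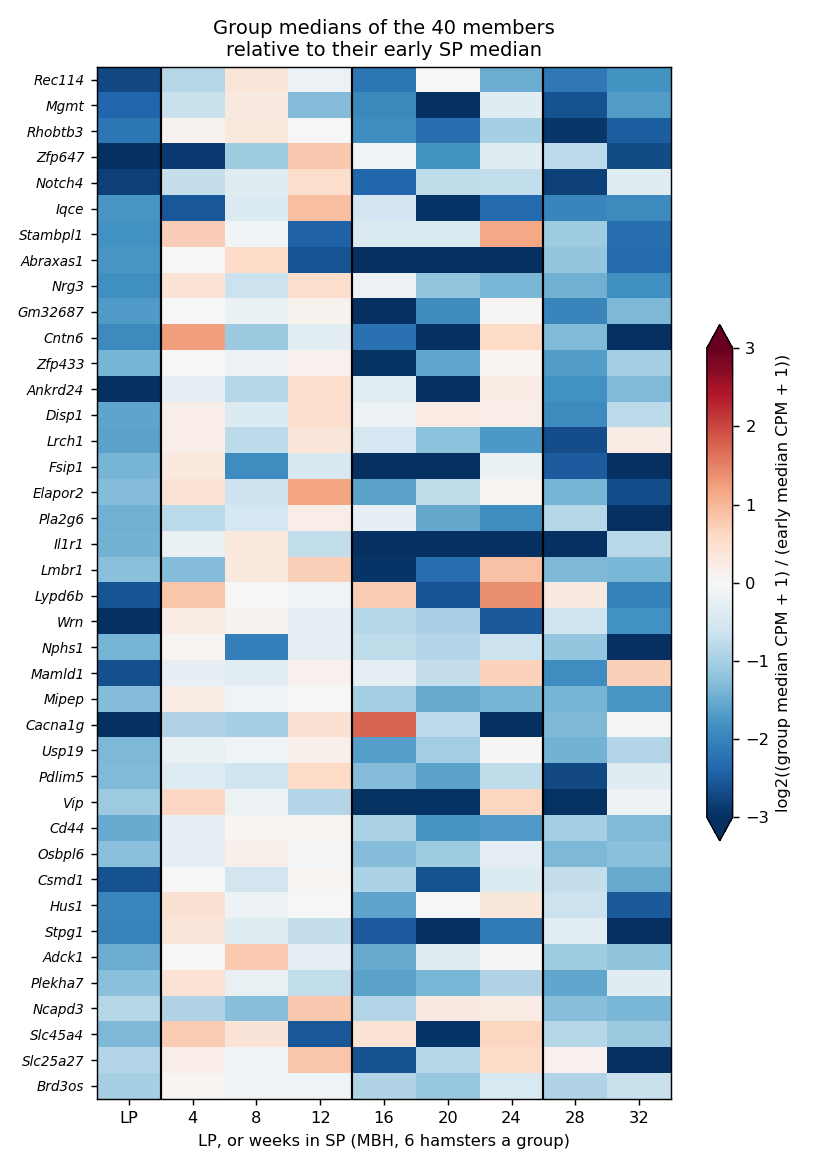
Group medians of the 40 members in the MBH, as log2 of (median CPM + 1) over (early median CPM + 1), from blue (below the early median) to red (above). Columns are LP and weeks of SP with 6 hamsters each, vertical lines set off LP, early, middle and late groups, and rows run from the largest ratio (Rec114) to the smallest (Brd3os). At 16 and 20 weeks most members are blue, and at 24 weeks 17 members reach or pass their early median.

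The difference between 24 and 16 weeks was tested, as both groups were outside the rule, in edgeR by a quasi-likelihood fit to all genes. No member and no other gene passed a BH-corrected FDR of 0.1 (0 of 20115 genes, 0.0%). At an unadjusted p under 0.05 there were 3 members, all higher at 24 weeks, and 3.71% of all genes, and DESeq2 also called none. The 3 were Gm32687 and Zfp433, which share counts, and Slc25a27, at log2 differences of 2.99 ± 1.29, 2.96 ± 1.24 and 2.09 ± 1.00 (SE), each with an adjusted p of 1. The median log2 difference was 0.37 over the 40 members and 0 over all genes, and 31 members were on the higher side (49.4% of the genes read in at least 27 libraries). The median was 0.20 to 0.57 when a replicate number was left out and 0.63 with the replicate block. Without replicate 2, which gave the lowest median, 23 members were on the higher side and the 3 members were no longer under 0.05, while 2 others were, both lower at 24 weeks. Any difference among 16, 20 and 24 weeks was called by edgeR in 1 of 20115 genes (0.00497%), which was not a member, and an unadjusted p under 0.05 was found in 0 members and 4.45% of genes.

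In exact 2-sided permutation tests of mean CPM between these weeks, made for 24 named members, Cntn6 was higher at 24 weeks (34.2 ± 27.7 against 6.14 ± 7.66 CPM, SD, n = 6 each, exact p = 0.0216) and Cacna1g was lower (27.3 ± 42.3 against 127 ± 105 CPM, exact p = 0.0346). Neither p was adjusted for the 24 tests, and by edgeR over all genes both had an adjusted p of 1. The other 22 had exact p of 0.0736 or more. Cd44 had 44.6 ± 41.1 CPM at 24 weeks and 67.9 ± 46.8 CPM at 16 weeks (exact p = 0.390).

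The DMH, pituitary gland and PVN of the same hamsters were not used by the rule, and few members could be followed there. In the DMH all 40 members were in the table, but 2 of them, Adck1 and Usp19, were read in at least 27 of 54 libraries, and 36 had an early median of 0. In the pituitary gland 38 members were in the table, Nphs1 alone was read in at least 27 libraries, and 36 had an early median of 0. In the PVN 35 members were in the table and 18 were read in at least 27 libraries. Depth differed as well, with a median of 932105 counts in the DMH, 81029 in the pituitary gland and 168904 in the PVN against 952862 in the MBH, all without Gm32262. With so few libraries in which they were read, a change of most members in the DMH or the pituitary gland was not detectable.

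In the DMH, early SP was compared with LP by edgeR, with 358 of 21803 genes called (1.64%). The members' median log2 difference was -0.69 (-0.14 over all genes), and 14 members had an unadjusted p under 0.05, 10 of them lower in early SP, where 8.75% of genes did. Among members, Il1r1 (log2 difference -3.30 ± 0.86, adjusted p = 0.0636) and Nphs1 (-2.84 ± 0.83, adjusted p = 0.0898) fell, the direction opposite to the MBH. Il1r1 had reads in a single LP library, with 1 count on each of its 14 isoforms, and in none of the 18 early libraries. Nphs1 had reads in 2 LP libraries, at 6.61 and 8.27 CPM, and in 4 early ones, at 2.64 CPM or less. Without replicate 4, which held both in LP, the adjusted p was 1 for Il1r1 and 0.285 for Nphs1, and the latter was 0.564 without replicate 1. In exact permutation tests of mean CPM the p was 0.25 for Il1r1 and 0.0556 for Nphs1 (18 early against 6 LP libraries). Neither was called with the most abundant isoform, in the edgeR 4 form of the test, with the replicate block (adjusted p of 0.320 and 0.393) or by DESeq2. Against late SP no member was called among 1 gene of 21803 (0.00459%), and 8 members had an unadjusted p under 0.05, 7 of them higher in early SP, where 6.39% of genes did. Genes as a whole lay higher than in late SP too, with a median of 0.25 over all genes and 0.59 over the members. The median number of gene symbols read in the DMH was 11209 in LP, 9232.5 in early SP and 4477 in late SP. The part of this breadth in the differences was not tested. Of the 2 members read in at least 27 DMH libraries, 0 had an unadjusted p under 0.05 by edgeR in either comparison.

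In the pituitary gland 143 of 22370 genes were called between early SP and LP (0.639%), where 6 members had an unadjusted p under 0.05, all lower in early SP (6.7% of genes), and 3 of them fell at the FDR of 0.1, Cacna1g (-4.76 ± 0.87, adjusted p = 0.00680), Iqce (-4.39 ± 0.94, adjusted p = 0.0167) and Wrn (-3.34 ± 0.87, adjusted p = 0.0631). Each had reads in a single LP library. For Cacna1g that library held 44 counts, 1 on each of 44 isoforms, which made 556 CPM at its depth. Iqce and Wrn were both read in replicate 2 of LP, with 35 and 14 counts of which no isoform had more than 2. Without the replicate that held it, each of the 3 had an adjusted p of 1 (replicate 1 for Cacna1g, replicate 2 for Iqce and Wrn). The exact permutation p was 0.25 for each of the 3, and with the most abundant isoform none was called. Against late SP 0 members were among the 68 genes called (0.304%), and 7 members had an unadjusted p under 0.05, all lower in early SP, with 7.68% of genes. Nphs1, the 1 member read in at least 27 pituitary libraries, had medians of 6.44 CPM in LP, 19.1 in early SP and 10.02 in late SP. Its log2 differences were 0.36 against LP and 1.13 against late SP, neither with an unadjusted p under 0.05 by edgeR.

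In the PVN, where 18 members were read in at least 27 libraries, no member was called between early SP and LP, where edgeR called 2 of 18947 genes (0.0106%), nor between early and late SP, where it called 0 (0.0%). An unadjusted p under 0.05 by edgeR was found in 4 of the 35 members in the table against LP (3.83% of genes). Of these, Fsip1 was higher and Cacna1g, Lrch1 and Nphs1 were lower. Against late SP it was found in 4 members (4.47% of genes), all higher. Nphs1 was read in only 2 PVN libraries, both of LP, and Fsip1 in 22. Among the 18 members read in at least 27 libraries, 2 had such a p against LP, both lower. Against late SP 1 of the 18 did, and it was higher. Over the 35 members in the table the median log2 difference was 0.17 against LP and 0.24 against late SP, where it was 0.06 and 0.04 over all genes. When the fit was limited to the 10078 genes read in at least 27 libraries, the 18 members among them had a median of -0.26 against LP, the opposite sign, and 0.29 against late SP (0.05 and 0.03 over these genes).

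Single members differed between PVN and MBH in what they showed. The PVN table listed 35465 isoforms of 18960 gene symbols, against 91460 isoforms of 20156 symbols in the MBH. Sums over isoforms, and limits set on them, are thus not like for like between the 2 tissues. Cacna1g had 34.1 ± 36.9 CPM in early SP (SD, n = 18) and 96.6 ± 62.2 CPM in LP (n = 6, exact permutation p = 0.00722), lower in early SP where in the MBH its median was higher. One of these LP libraries held 159 counts in all and none of Cacna1g, and without it LP had 116 ± 45.2 CPM (n = 5, exact permutation p = 0.000743). This was 1 of 11 members tested so in the PVN, the p was not adjusted, and by edgeR the difference of -1.49 ± 0.61 had an adjusted p of 0.973. Cd44 had 28.4 ± 41.1 CPM in early SP and 59.5 ± 41.98 CPM in LP (exact permutation p = 0.124), and 71.4 ± 33.8 CPM in LP without that library (exact permutation p = 0.0395). Mipep had 12.9 ± 12.5 CPM in early SP, 4.24 ± 5.02 in LP (exact permutation p = 0.106), 5.08 ± 5.11 in LP without that library (exact permutation p = 0.183) and 6.62 ± 7.38 in late SP (permutation p = 0.120), in the direction of the MBH but within the spread. Of 14 members that passed the same limits on libraries and CPM in the PVN, 4 met the same 2-fold rule there, Adck1, Disp1, Ncapd3 and Osbpl6, named after their values were seen, where 3.82% of the 9089 genes that passed these limits did. Without the 2 PVN libraries under 10000 counts, one of them the LP library of 159 counts, Adck1 alone met it, and 2.53% of genes did. Disp1, Ncapd3 and Osbpl6 then had ratios of 1.33, 1.39 and 1.46 to LP.

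**Figure D5:**
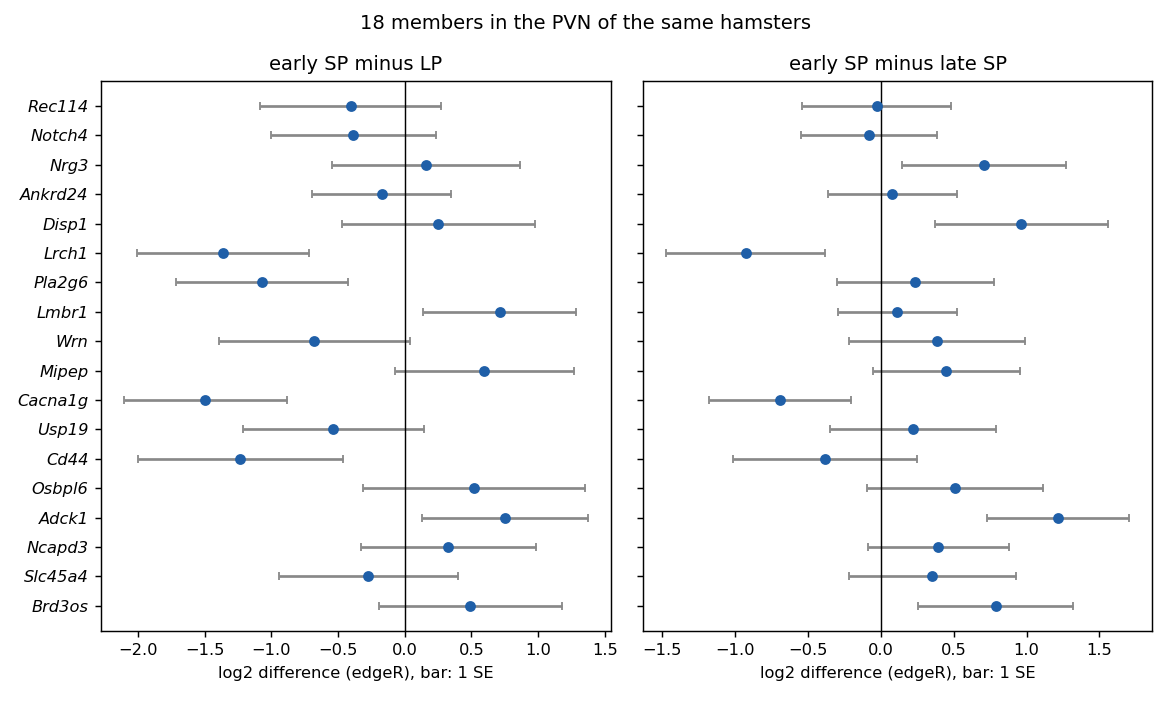
Log2 differences in the PVN between early SP and LP (left) and between early and late SP (right) for the 18 members read in at least 27 of 54 PVN libraries, from edgeR, with bars of 1 SE. Points lie on both sides of 0, and no member passed an FDR of 0.1.

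The fixed pathway lists held none of the 40. With 0.542% of all genes that passed the limits meeting the rule, lists of this size would hold few or none. Of 23 genes of the thyroid hormone and photoperiod response 14 passed the limits on libraries and CPM and 0 met the rule, of 21 clock genes 12 passed and 0 met it, and of 14 genes of retinoic acid signalling 6 passed and 0 met it. Of 21 acetylcholine receptor genes 3 passed and Chrna3, which was set aside, met it. The lists of histamine and dopamine, somatostatin and immediate early genes had 3, 1 and 2 genes that passed and 0 that met the rule. Dio3, in the thyroid hormone list, is named here after its values were seen. It was read in 13 of 54 libraries, with medians of 0.904 CPM in early SP and 0 in LP and late SP. It did not pass the limits, so that the rule could not assess it.

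All 10 markers of arcuate neurons, which lie in the MBH, were in the table, with a summed level of 643 to 1134 CPM in LP and 137 to 1257 CPM in early SP. Lists of other cells moved between LP and early SP. All 11 markers of pars tuberalis and pituitary summed to 933 to 3414 CPM in LP (median 2517), to 36.9 to 542 CPM in early SP (median 119) and to 56.8 to 1298 CPM in late SP (median 260). Tanycyte markers had medians of 510, 254.8 and 285 CPM and oligodendrocyte markers of 2015, 800 and 1149 CPM. The part of any marker list in the members' levels was not tested. Neuronal markers of GABA and glutamate had medians of 1342, 1411 and 1333 CPM.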

How the data were processed

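RNA of 4 tissues from 54 hamsters was sequenced as nanopore cDNA. The authors removed adapters, filtered reads, aligned them to the mouse genome with Minimap2 and deposited estimated counts per isoform from Salmon, filtered for low counts with edgeR and not normalized. The kit was a PCR-cDNA kit per the labels, and for the pituitary gland the methods name a direct cDNA kit. How reads that fit several isoforms were assigned was not stated.

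Here expected counts were summed per gene symbol, and 0 columns were left unmapped. MBH libraries held 5996 to 13208360 counts (4532 to 7174575 without Gm32262, which took 8.33% to 65.7%). For tests the sums were rounded, Gm32262 was removed and edgeR 4.0.16 (R 4.3.3) was run per tissue with TMM, 9 groups and 54 libraries, using the older (legacy) quasi-likelihood test,  on genes with any count, with BH correction over the whole table and an FDR below 0.1. SE was the absolute log2 difference over the square root of F. Exact permutation tests enumerated 924 regroupings (6 against 6) or 134596 (18 against 6), and 100000 resamples were drawn for 18 against 12, all with Python 3.11.15 and scipy 1.17.1. Every test was 2-sided. Alternatives included DESeq2 1.42.0. The scripts were tested on simulated data.

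The members, gene lists and tests were chosen with earlier results of these data known. Named members are the 10 with the largest smaller ratio, the 10 with the highest early median, those nearest the 2-fold threshold, those in a fixed list, those called outside the rule and, for likeness, the 3 closest to each of the 3 most abundant. Others are named by role with their medians. p-values set a difference against the spread between hamsters. The main tests use sums over isoforms and treat same-numbered libraries as independent. No sequence or genome position was used here.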

Additional observations from a re-analysis of the deposited data

Results flagged for a closer look

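Dixon's ratio (gap to the nearest library over the range of the group, against its 95% critical value) was computed for 8 members in 9 groups each, 72 groups in all. It was passed in 16 of them, each time by the highest library. Chance gives about 1 in 20 for normally distributed values, and these were skewed and often 0.

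For Vip the highest library stood apart in LP (22.7 CPM, next 5.31), at 8 weeks (90.3, next 13.3), at 16 weeks (25.97, next 1.28), at 20 weeks (22.1, next 0.386) and at 28 weeks (4.88, next 0.709). For Cacna1g it did in LP (86.5 CPM, next 27.4) and at 20 weeks (117, next 22.8). Usp19 and Osbpl6 had such a library at 12 weeks (68.7 and 118 CPM) and at 16 weeks (65.1 and 69.2 CPM), Pdlim5 at 20 weeks (67.2 CPM) and 28 weeks (36.2 CPM), and Brd3os at 8 weeks (38.7 CPM) and 12 weeks (38.1 CPM). For Cd44 the library of 230.96 CPM at 12 weeks stood above the next at 131 CPM. Mipep passed the value in none of its 9 groups.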

How the results depend on the processing

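In place of the 40 members the rule gave 7 genes with the most abundant isoform, 23 with means in place of medians, 139 at 1.5 times, 19 at 3 times, 84 at 2 CPM, 16 at 10 CPM and 76 with 8 and 12 weeks as the early window. It gave between 37 and 114 genes when a replicate number was left out (114 without replicate 5). These were in part other genes. Members were 3 of the 7, 6 of the 23 and 31 of the 76, and 19 to 34 members were kept when a replicate number was left out. The other alternatives gave 40 to 52 genes, and of the 40 members 23 met the rule with Gm32262 in the total and 34 with TMM.

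The share of all tested genes that was called varied too, and the cause was not tested. For 24 against 16 weeks it was 0.0249% with the most abundant isoform, and for the F-test over 16, 20 and 24 weeks (0.00497%) it was 0.0696% with that isoform and 0% at FDR below 0.05, with genes read in 27 libraries, filterByExpr, DESeq2, the edgeR 4 form or the replicate block. For early SP against LP in the DMH (1.64%) it was 0.679% at FDR below 0.05, 0% with genes read in 27 libraries and by DESeq2, 0.0149% with filterByExpr, 0.00917% in the edgeR 4 form, 0.372% with the replicate block and 0.0918% with the most abundant isoform. Against late SP there (0.00459%) it was 0.0138% with Gm32262 and 0% with genes read in 27 libraries, filterByExpr, the edgeR 4 form, the replicate block or the most abundant isoform. In the pituitary gland against LP (0.639%) it was 0.393% at FDR below 0.05, 0.0461% with genes read in 27 libraries, 0.0620% with filterByExpr, 0.00449% by DESeq2, 1.71% in the edgeR 4 form, 1.31% with the replicate block and 0.0224% with the most abundant isoform. Against late SP (0.304%) the values were 0.125%, 0.0231%, 0.0620%, 0.00449%, 1.48%, 1.53% and 0.0134% in the same order, and 0.161% with the size factors of DESeq2. In the PVN against LP (0.0106%) it was 0.00528% at FDR below 0.05, in the edgeR 4 form, with the replicate block or without libraries under 10000 counts, 0% with genes read in 27 libraries, filterByExpr or DESeq2 and 0.0211% with the most abundant isoform, and against late SP (0%) it was 0.00528% with the replicate block and 0.0317% with the most abundant isoform. Leaving out a replicate number gave 0% for 24 against 16 weeks and for the F-test, 0.421% to 1.45% and 0% to 0.0234% in the DMH, 0.536% to 1.87% and 0.299% to 0.879% in the pituitary gland, and 0% to 0.0106% and 0% to 0.00540% in the PVN, for LP and late SP in turn. Over all these alternatives 0 to 3 members were called in the DMH against LP, 0 to 5 and 0 to 2 in the pituitary gland, and 0 in the other comparisons.

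The labels do not say that a replicate number marks a shared batch. Same-numbered MBH libraries of different groups had a median r of 0.04 after group means were subtracted (lowest -0.21). Differently numbered ones had a median r of -0.007 (lowest -0.26). The medians were 0.07 and -0.02 in the DMH, 0.04 and -0.006 in the PVN, and 0.07 and -0.02 in the pituitary gland. Of 54 MBH libraries 26 matched best with one of their own number, although most libraries of other groups carry another number. DMH libraries did so in 14, PVN libraries in 21 and pituitary libraries in 37 cases. Same-numbered libraries were thus somewhat more alike, and the main tests do not take this into account. The replicate block is therefore given as an alternative. Leaving out PVN libraries under 10000 counts from the exact tests and the rule was chosen after seeing the data. Gm32262 is not in the PVN table used here, and no library of the DMH or pituitary gland was under 10000 counts, so these alternatives were not run there. The median of 1.40 counts of the most abundant isoform limits the precision of nearly all members.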
